A study of Mus musculus with 2 samples.

Results

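Granulocyte-monocyte progenitor-like cells were taken from single-cell RNA-seq of sorted mouse bone marrow by the level of 3 genes, Mpo, Elane and Ctsg. A cell belonged to this gate when it held at least 500 detected genes, at most 10% of its UMIs (unique molecular identifiers, each counting 1 captured RNA molecule) from mitochondrially encoded genes, at least 10 UMIs of Mpo, Elane and Ctsg together per 10000 UMIs, and fewer than 10 raw UMIs of Camp, Ngp and Ltf together. Of 20241 kept cells 1212 met the rule. The members were thus chosen by the measured values of these 6 genes, which are described below and support nothing, and the same holds for any comparison of gate cells with the other cells.

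The cells were sorted as LSK CD150+, that is without lineage markers and with Kit, Sca-1 and CD150, a SLAM family receptor, on the surface. Both groups came from the Runx1F/F Mx1-Cre mouse model, in which a Runx1 allele with loxP sites meets a Cre recombinase driven by the interferon-responsive Mx1 promoter. Each genotype label, RUNX1 WT and RUNX1 KO, stands on 1 library of about 10000 sorted cells. The age of the mice, the number pooled, and whether the WT mice carried Cre or either group received an interferon inducer are not given in the sources used here. With 1 library per genotype no difference could be tested, and every interval below is a 95% interval for counting error only.

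Granulocyte-monocyte progenitors are bone marrow cells that give rise to neutrophils and monocytes. During the promyelocyte stage of neutrophil development they fill azurophil (primary) granules with myeloperoxidase and with serine proteases. Proteins of the specific (secondary) granules, among them cathelicidin and lactoferrin, are made later. The factors PU.1, C/EBP and RUNX1 are known to drive many of these granule genes, with GFI1 and C/EBPε favouring neutrophils and IRF8 favouring monocytes and dendritic cells.

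The gate genes and their closest relative encode the main azurophil proteins. Mpo (ENSMUSG00000009350, chromosome 11, 87793581 to 87804413, plus strand of GRCm38) encodes the peroxidase that makes hypochlorous acid. Elane (ENSMUSG00000020125, chromosome 10, 79886247 to 79888215, plus strand) encodes neutrophil elastase. Ctsg (ENSMUSG00000040314, chromosome 14, 56099881 to 56102574, minus strand) encodes cathepsin G, and Prtn3 (ENSMUSG00000057729, chromosome 10, 79874476 to 79883174, plus strand) encodes proteinase 3. Prtn3 lies next to Elane and was not used by the rule.

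The 250 bases before the start of each of these 4 genes in the RefSeq gene models (build GRCm38.p6) are shown because their promoters are where the factors named above are known to act. The windows are chr11:87793534-87793783 for Mpo, chr10:79886062-79886311 for Elane, chr14:56102575-56102824 on the minus strand for Ctsg and chr10:79879417-79879666 for Prtn3. The GENCODE models of Mpo, Elane and Prtn3 begin further upstream, so that part or all of those windows lies inside them. Each is written 5′ to 3′ on the strand of its gene, with motif matches in capitals:
Mpo: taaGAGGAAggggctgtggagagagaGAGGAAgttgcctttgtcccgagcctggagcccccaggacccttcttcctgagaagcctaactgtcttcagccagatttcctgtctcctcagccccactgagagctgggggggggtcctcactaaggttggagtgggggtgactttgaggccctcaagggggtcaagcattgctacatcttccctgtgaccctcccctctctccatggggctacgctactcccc
Elane: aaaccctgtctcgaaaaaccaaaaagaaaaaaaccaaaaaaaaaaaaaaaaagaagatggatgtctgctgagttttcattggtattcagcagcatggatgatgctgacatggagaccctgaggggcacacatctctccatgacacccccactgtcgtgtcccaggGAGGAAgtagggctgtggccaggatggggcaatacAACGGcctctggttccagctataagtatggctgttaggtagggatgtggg
Ctsg: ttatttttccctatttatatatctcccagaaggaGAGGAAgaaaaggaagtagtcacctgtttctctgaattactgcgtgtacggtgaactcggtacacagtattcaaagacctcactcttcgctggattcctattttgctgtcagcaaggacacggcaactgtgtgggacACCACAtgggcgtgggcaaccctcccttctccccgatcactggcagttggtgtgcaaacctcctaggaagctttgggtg
Prtn3: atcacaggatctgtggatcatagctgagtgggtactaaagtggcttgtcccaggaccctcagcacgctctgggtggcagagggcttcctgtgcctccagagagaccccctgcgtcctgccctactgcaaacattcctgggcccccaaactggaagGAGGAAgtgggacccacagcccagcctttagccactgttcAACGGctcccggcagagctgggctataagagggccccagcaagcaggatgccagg
Capitals mark the letters GAGGAA (a PU.1 core), AACGG (MYB), TGTGGT and TGCGGT (RUNX) and TTGCGCAA (C/EBP), searched on both strands, and no match overlaps another. GAGGAA stood in all 4 windows, at -247 and -224 for Mpo, -85 for Elane, -216 for Ctsg and -95 for Prtn3, counted from the gene start. It was found in 23.25% of 32851 mouse promoter windows of this length. AACGG stood at -50 for Elane and -55 for Prtn3 and in 14.53% of all windows. The RUNX form TGTGGT was found in the Ctsg window alone, on the opposite strand (read as ACCACA) at -79, and in 14.05% of all windows. TGCGGT (5.10% of all windows) and TTGCGCAA (0.164%) matched in none of the 4. These matches describe letters and not binding.

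The libraries held 9969 (WT) and 11398 (KO-labelled) barcodes with 113732196 and 120578398 UMIs, and 39 barcodes occurred in both, 0 of them as gate cells in both. Runx1, the targeted gene, was higher in gate cells of the library labelled KO, at 85.1 CPM (the gene's UMIs scaled to all UMIs of the gate cells in that library, as in the usual CPM) in WT and 163 CPM in KO-labelled cells, a ratio of 1.92 (1.76 to 2.09). The other kept cells gave 1.89. These 3′ tags need not come from the deleted part, which the labels do not name, so they check nothing about the genotype, and directions below are those of the library labelled KO. The libraries also differed in sex. Among gate cells, 426 of 550 WT cells (77.5%) had a UMI of a Y-linked gene and no Xist UMI, against 64 of 662 KO-labelled cells (9.67%), and 528 KO-labelled cells (79.8%) had at least 2 Xist UMIs and none of the Y-linked genes, against 0 WT cells. The part of sex in the results was not tested, and values between male cells are given beside them.

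Gate cells made up about the same share of both libraries. There were 550 among 9472 kept WT cells, 5.81% (5.34 to 6.30, exact Clopper-Pearson interval), and 662 among 10769 kept KO-labelled cells, 6.15% (5.70 to 6.62). The intervals overlapped and the ratio of the shares was 1.06. Gate cells were deeper than the rest, with medians of 15356 (WT) and 15742 (KO-labelled) UMIs per cell against 9639.5 and 9050 in the other kept cells. They held 9369501 and 11187904 UMIs. Without the 5% of cells with most UMIs in each library the order of the shares turned, to 5.36% and 5.13%.

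Most other kept cells lay far below the threshold, which cut through a continuous range of levels. Of the other kept cells 72.2% (WT) and 68.6% (KO-labelled) had no UMI of any gate gene. Inside the gate the lowest, median and highest summed level were 10.0, 72.7 and 477 per 10000 in WT cells and 10.0, 80.4 and 540 per 10000 in KO-labelled cells, so members differed far more among themselves than the libraries did. Near the threshold, 26 WT and 25 KO-labelled cells lay between 10 and 12 per 10000, and 21 and 29 lay between 8 and 10. The cells just inside had median levels per 10000 of 5.14 (WT) and 2.66 (KO-labelled) for Mpo, 4.55 and 6.66 for Ctsg and 0 in both for Elane. Just outside they were 4.17 and 3.79 for Mpo, 4.9975 and 4.70 for Ctsg and again 0 for Elane. Elane was thus often missing at the low end, and over the gate a UMI of it was found in 70.9% (WT) and 74.6% (KO-labelled) of cells, against 97.5% and 97.4% for Mpo and 98.9% and 99.7% for Ctsg. The limit on late granule genes left out 1 WT and 9 KO-labelled cells that had reached the level.

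**Figure D1:**
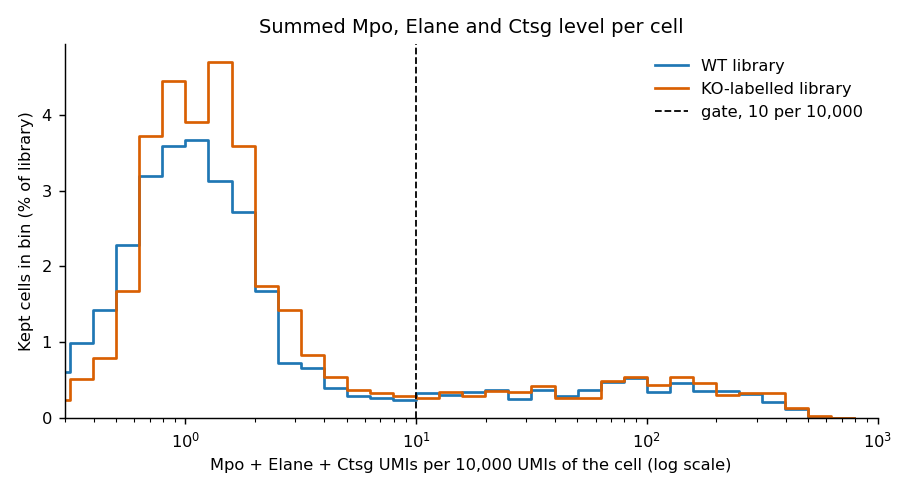
Distribution of the summed Mpo, Elane and Ctsg level per kept cell (x axis, UMIs per 10000 UMIs of the cell, log scale) in the WT and KO-labelled libraries (y axis, percent of the library's kept cells in each bin), with the gate at 10 marked by a dashed line. Cells with no UMI of these genes (72.2% and 68.6% of the other kept cells) are not drawn, and both libraries show a low peak near 1 per 10000 and a broad shoulder from 10 to above 200.

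Further progenitor markers, which the rule did not use, were checked against the label as a description, since they come from the same cells. In gate cells over other kept cells, Prtn3 was 30.7-fold (WT) and 22.8-fold (KO-labelled) higher. Ms4a3, a membrane protein gene that marks these progenitors, was 28.6-fold and 21.1-fold higher. Cebpe, the C/EBPε gene, was 92.6-fold and 24.1-fold higher and Gfi1 17.8-fold and 8.74-fold. On the monocyte side Csf1r, the receptor for macrophage colony-stimulating factor, was 18.3-fold and 18.4-fold higher and Irf8 7.45-fold and 11.2-fold. Fcgr3 (CD16) was 51.6-fold and 19.7-fold higher, and Cd34 2.14-fold and 1.44-fold. Genes of both the neutrophil and the monocyte side were thus higher in the summed gate, while single cells varied, with an Ms4a3 UMI in 77.6% of WT and 46.2% of KO-labelled members.

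Genes of the sort itself were low in the gate. Each cell was thinned at random to 3000 UMIs, which left out 4 WT gate cells. A UMI of Ly6a (Sca-1) was then found in 1.28% of WT gate cells and 2.57% of KO-labelled ones. In the other kept cells the shares were 10.8% and 13.7%. Erythroid-gene-rich cells outside the gate, used here and below as a floor, gave 0.969% and 1.91%. Whether their UMIs are free RNA or their own was not tested. Slamf1 (CD150) stood at 4.70 and 3.84 CPM, against 18.6 and 31.1 CPM in the other kept cells. Kit was at 90.0 and 78.0 CPM, against 156 and 147 CPM.

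Beyond those markers, 29 of 2497 genes at 50 CPM or more in gate cells of both libraries (1.16%) were at least 10-fold higher in the gate than in the other kept cells of both, gate genes included. The order by the smaller of the 2 ratios was led by Trem3, a receptor gene of myeloid cells, which stood at 55.3 CPM in WT and 69.5 CPM in KO-labelled gate cells and was 143-fold and 41.8-fold above the rest. Igsf6, an immunoglobulin-family membrane protein gene, was 38.8-fold and 37.8-fold higher and Clec12a, an inhibitory lectin receptor of myeloid cells, 46.7-fold and 35.9-fold. Atp8b4, a lipid flippase gene (40.0-fold and 34.6-fold), Anxa3 (42.8-fold and 34.0-fold), and Ly6c2, which encodes a Ly6C antigen of monocytes (46.7-fold and 29.0-fold), followed. F13a1, the A chain of coagulation factor XIII and a monocyte gene, was 27.7-fold and 34.6-fold higher. Prss57, a further serine protease gene of neutrophil granules, haptoglobin (Hp) and Slpi, an inhibitor of elastase and cathepsin G, were also among the first 15. Prg2, an eosinophil granule gene, is in that group as well, but 10 WT cells held 99.7% of its WT UMIs and 9 KO-labelled cells held all of its UMIs there.

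**Figure D2:**
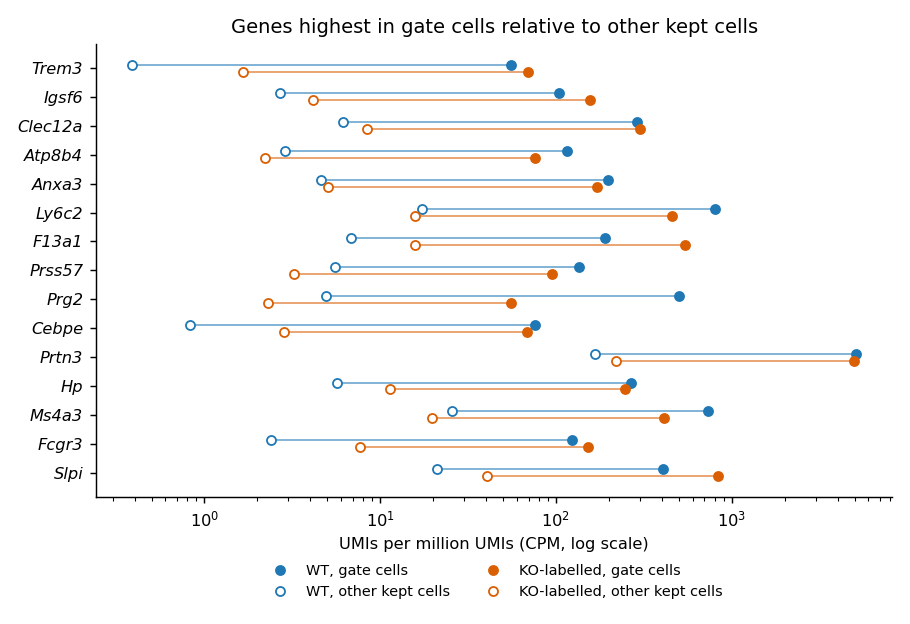
Level of the 15 genes with the highest ratio of gate cells to other kept cells (x axis, CPM, log scale), with filled points for gate cells and open points for other kept cells of the WT and KO-labelled libraries. All 15 filled points lie at least 10-fold to the right of their open points, and F13a1 and Slpi are further right in the KO-labelled library while Ms4a3, Ly6c2 and Prg2 are further right in WT.

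A group of WT cells in the gate went against the label. In 58 WT gate cells (10.5%) Mcpt8 and Prss34, protease genes of basophils, reached 10 per 10000 or more together, up to 1151 per 10000, and no KO-labelled cell did, its highest being 1.65. In these 58 cells the median level was 42.8 per 10000 for Ctsg, 10.1 for Mpo and 0 for Elane, which had a UMI in 16 of them. Their median depth was 7732 UMIs, and 31 of the 58 lay between 50 and 100 per 10000 in the gate level. By these medians Ctsg was the largest part of their gate level, while the median of Mpo alone also reached the threshold of 10. The genes Ctsg and Mcpt8 lie near each other on chromosome 14, Mcpt8 (ENSMUSG00000022157) from 56082166 to 56085273.

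A further 6 WT gate cells and 1 KO-labelled gate cell were rich in the eosinophil genes Prg2, Prg3 and Epx only. Without the cells rich in either kind of gene, 486 WT and 661 KO-labelled cells remained in the gate. Such cells were also taken out of the kept cells. The shares were then 5.18% (4.74 to 5.65) and 6.14% (5.70 to 6.61), and the intervals no longer overlapped. This alternative was chosen after the data were seen, and gene results below are given with and without those cells where they differ. Cells of other kinds were rarer. Only 7 WT and 3 KO-labelled gate cells had 10 or more UMIs per 10000 of the erythroid genes Klf1, Car1 and Ermap. Of the macrophage genes, C1qa was at 3.095 and 0.804 CPM and C1qb at 2.13 and 1.25 CPM. The T cell gene Cd3e was at 0 in both libraries and the B cell gene Cd79a at 0.107 and 0 CPM.

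Most genes of the gate cells stood at similar levels in the libraries, and a small set differed. In KO-labelled gate cells 31 of 5446 genes (0.569%) exceeded the WT level by 2-fold or more, and 38 (0.698%) lay below it by 2-fold or more, among genes reaching 20 CPM in WT or KO-labelled gate cells. The counts rest on fold size alone, without a test. Without the cells rich in basophil or eosinophil genes they were 33 of 5434 (0.607%) and 21 (0.386%), so the number of lower genes depended on those cells. Between male cells, with 1055987 UMIs in the KO-labelled library, they were 48 and 125. The median log2 ratio over the 5446 genes was -0.070.

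The lowest ratios were those of basophil genes. Prss34 had 11169 UMIs (1192 CPM) in WT gate cells and 0 in KO-labelled gate cells, at least 4446-fold lower when 3 counts are set for the library at 0. Fcer1a, the alpha chain of the IgE receptor, had 1011 and 0 UMIs, at least 402-fold lower. Mcpt8 stood at 1183 and 5.99 CPM, a ratio of 0.00506 (0.00392 to 0.00643). Of the Mcpt8 and Prss34 UMIs of the WT gate 98.6% came from the 58 cells described above.

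Some of the basophil genes were also lower outside those cells. Without the cells rich in basophil or eosinophil genes Mcpt8 was at 32.9 CPM in WT and 5.99 CPM in KO-labelled cells, a ratio of 0.183, and it was lower in all 5 bands of the gate level. After thinning, 8.26% of those WT cells had a Mcpt8 UMI, against 1.06% of those KO-labelled cells. In erythroid-gene-rich cells outside the gate, which should lack it, the shares were 1.18% and 0.112% (median depths 14673 and 12153 UMIs per cell, against 16535 and 15747 in the gate cells compared), so the WT share lay above that floor. For Prss34 the same WT gate cells gave 0.620%, below the 1.29% of the erythroid set, which reads as background. Over the basophil, mast and eosinophil list 12 of 13 measured genes were lower, all 12 by at least 1.5-fold, where 5.15% of all 9137 genes at 5 CPM or more were lower by that much. The list's median log2 ratio was -4.64. Without the cells rich in basophil or eosinophil genes it was -1.49, and of the 12 members that still had UMIs 8 were lower and 4 higher. Cpa3, a mast cell protease gene, turned from a ratio of 0.535 to 1.69 without them, Prg3 from 0.166 to 1.61 and Cd200r3 from 0.0401 to 5.47, the last 2 at few UMIs. Hdc, which makes histamine, was at 1.22 and 1.63. These list members are named after their values were seen.

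Among the azurophil genes, Mpo, Ctsg and Prtn3 stood close to each other in the libraries. Mpo was at 3923 CPM in WT and 4576 CPM in KO-labelled gate cells (ratio 1.17), Ctsg at 3740 and 4512 CPM (1.21) and Elane at 4050 and 4199 CPM (1.04). Prtn3, outside the rule, was at 5112 and 4987 CPM, a ratio of 0.976 (0.964 to 0.987). Between male cells Elane was at 1.73, Mpo at 1.40, Ctsg at 1.47 and Prtn3 at 1.27, so the higher Elane level there rests on 64 KO-labelled cells.

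Some other genes high in these progenitors were lower in the KO-labelled gate. Of the whole progenitor list 11 of 24 measured members were higher and 13 lower, where 36.3% of all 9137 genes were higher and 63.7% lower. Ms4a3 stood at 735 CPM in WT and 413 CPM in KO-labelled cells, a ratio of 0.561 (0.541 to 0.583). Nkg7, a granule protein gene, was at 523 and 293 CPM, a ratio of 0.560 (0.536 to 0.586), and Ly6c2 at 806 and 455 CPM, a ratio of 0.565 (0.545 to 0.585). Cd63, a granule membrane protein gene, was at 522 and 181 CPM (0.347), and at 0.506 without the cells rich in basophil or eosinophil genes. Prss57 (0.702), Atp8b4 (0.660) and Calr, the calcium-binding chaperone calreticulin (0.724), were lower to a smaller degree. Between male cells Ms4a3 was at 0.894 and Nkg7 at 0.849, Prss57 was at 1.02, Atp8b4 at 0.911, Ly6c2 at 0.726 and Cd63 at 0.458.

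Several genes known from monocytes and macrophages were higher, but not all. Ly6c2 (0.565) and Cx3cr1 (0.372) were lower, Ccr2 stood at 0.946 and Csf1r at 1.42. F13a1 was at 189 CPM in WT and 544 CPM in KO-labelled gate cells, a ratio of 2.88 (2.73 to 3.03), and 2.73 between male cells. It was spread over many cells, with a UMI in 253 of the 550 WT cells and in 518 of the 662 KO-labelled ones and a median of 0 and 7 UMIs per cell. Lyz2, which encodes lysozyme, was at 781 and 1496 CPM (1.92, 1.86 to 1.97), and 2.42 between male cells. Psap, the precursor of lysosomal saposins, was at 242 and 447 CPM (1.85). Fn1, fibronectin, was at 15.2 and 70.3 CPM (4.64, 3.88 to 5.59). Slpi was at 407 and 839 CPM, a ratio of 2.06 (1.99 to 2.14), and 2.39 between male cells.

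The progenitor list as a whole did not lean one way. It had 24 measured members, 11 above and 13 below the WT level, with 3 and 4 past 1.5-fold, and its median log2 ratio was -0.040, beside -0.077 over all 9137 genes at 5 CPM or more. The members past 1.5-fold included Lyz2 and Igsf6 (1.502), and on the lower side were Ms4a3, Nkg7, Ly6c2 and Cd63. Over all those genes 2.96% were higher and 5.15% lower by that much, 8.11% in all, and 36.3% were above and 63.7% below a ratio of 1. Between male cells the list's median was 0.37.

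When gate cells were split by the summed level of Mpo, Elane and Ctsg into bands of 10 to 20, 20 to 50, 50 to 100, 100 to 200, and 200 or more per 10000, the genes fell into clear patterns. The bands held 94, 120, 131, 111 and 94 WT cells and 98, 148, 139, 155 and 122 KO-labelled cells. The values below leave out the cells rich in basophil or eosinophil genes. Since Elane is part of the sum, its level within a band is tied to those of Mpo and Ctsg.

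Elane climbed at every step of the bands, in part because it helps to define them. From the lowest to the highest band it stood at 114, 260, 1719, 4873 and 12432 CPM in WT cells and at 45.6, 120, 516, 3100 and 14070 CPM in KO-labelled cells. It was thus lower in the KO-labelled library in the first 4 bands, with ratios from 0.3003 to 0.636, and at 1.13 in the highest, a difference that the gate total did not show. Mpo had ratios from 0.938 to 1.16 and Ctsg from 1.08 to 1.24 over the same bands. Prtn3, which the bands did not use, had ratios from 0.798 to 1.10.

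Ms4a3 also climbed at every step, and Nkg7 did so in both libraries from the middle band on. Ms4a3 stood at 51.9, 150, 370, 845 and 1813 CPM in WT cells from the lowest to the highest band and at 10.5, 19.3, 68.1, 297 and 1366 CPM in KO-labelled cells. Its ratios were 0.203, 0.129, 0.184, 0.351 and 0.753, nearest to 1 in the highest band. Nkg7 was at 280, 263, 259, 467 and 1169 CPM in WT and 99.0, 61.0, 72.1, 173 and 914 CPM in KO-labelled cells. Both genes were lower in all 5 bands.

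Between male cells Ms4a3 and Nkg7 were also lower below a level of 100. There 220 WT and 30 KO-labelled male cells gave ratios of 0.193 for Ms4a3 and 0.307 for Nkg7. At 100 and over, 163 and 34 male cells gave 1.35 for Elane, 0.794 for Ms4a3 and 0.845 for Nkg7. The ratios between all male gate cells were 0.894 for Ms4a3 and 0.849 for Nkg7. They join both ranges, which the libraries filled unequally (220 and 163 WT cells, 30 and 34 KO-labelled cells). They also include the cells rich in basophil or eosinophil genes, which the values by range leave out. Below a level of 100 the KO-labelled library had 80 Elane, 15 Ms4a3 and 31 Nkg7 UMIs.

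Ly6c2 differed only above a level of 50. It was at 376 and 398 CPM in the lowest band and 453 and 476 CPM in the next, WT before KO-labelled. From there the WT level was higher, with 856, 1204 and 1106 CPM against 262, 499 and 598 CPM. F13a1 went the other way in every band, at 176, 173, 303, 272 and 56.8 CPM in WT and 385, 559, 686, 730 and 252 CPM in KO-labelled cells. In both libraries it was lowest in the highest band, where the granule genes peaked.

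Slpi was higher in the KO-labelled library in all 5 bands, with ratios from 1.36 to 3.24, and so were Lyz2 (1.40 to 2.99), Psap (1.42 to 2.48), Igsf6 (1.29 to 2.002) and Runx1 (1.82 to 2.69). Fn1 was higher in the 4 bands with at least 20 UMIs, and it was lower at each higher band in both libraries, from 72.2 to 1.08 CPM in WT and from 191 to 3.50 CPM in KO-labelled cells. Prdx4, a peroxiredoxin of the endoplasmic reticulum named here after its values were seen, was at 155, 159, 171, 102 and 18.9 CPM in WT and 294, 311, 375, 390 and 144 CPM in KO-labelled cells. Calr and Cd63 were lower in all 5 bands, with ratios from 0.643 to 0.868 and from 0.389 to 0.583.

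**Figure D3:**
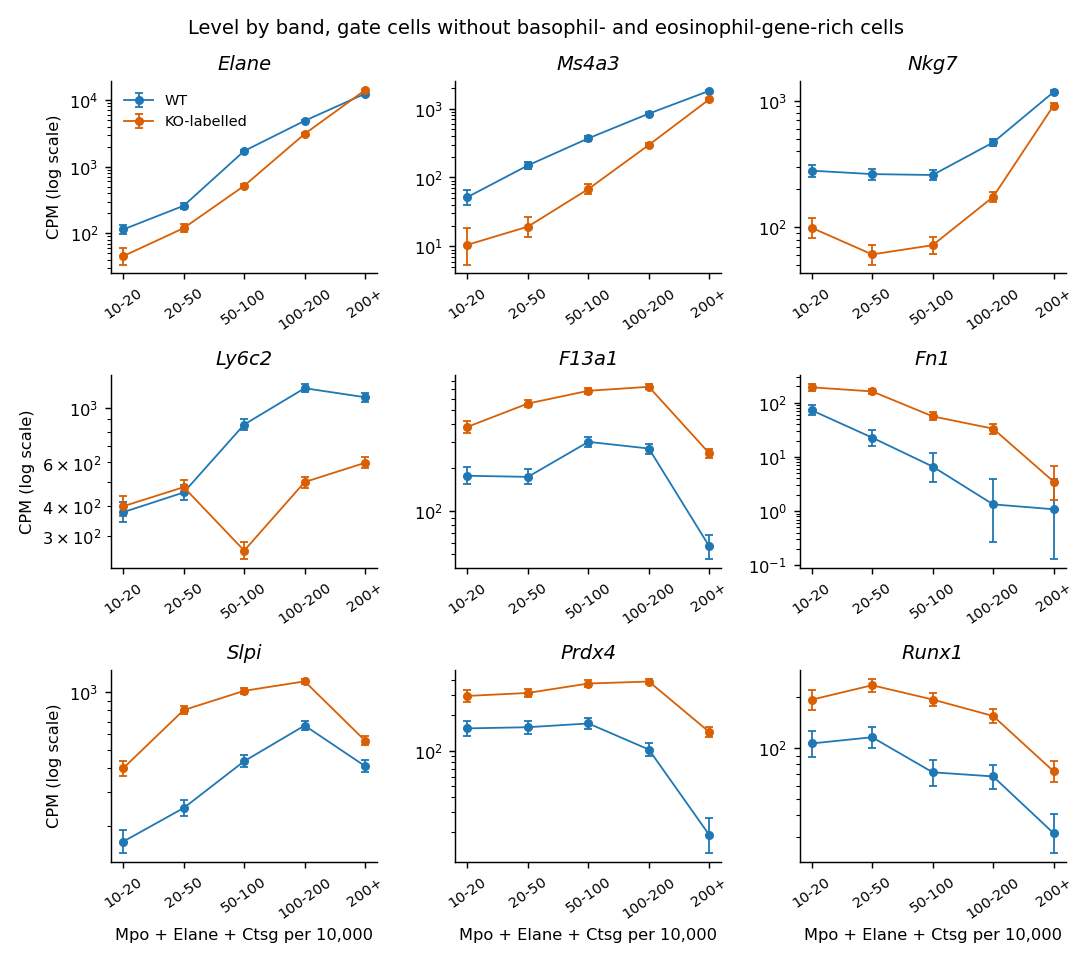
Level of 9 genes (y axes, CPM, log scale) by band of the summed Mpo, Elane and Ctsg level (x axis, UMIs per 10000), for WT and KO-labelled gate cells without cells rich in basophil or eosinophil genes, with bars for 95% Poisson intervals of the counts. The KO-labelled points of Elane, Ms4a3 and Nkg7 lie lowest against WT below 200 and come close to or above WT in the highest band, while those of F13a1, Fn1, Slpi, Prdx4 and Runx1 lie above WT in all 5 bands and those of Ly6c2 fall below WT from 50 upward.

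Shares of cells gave the same directions after thinning to 3000 UMIs. For F13a1 they were 30.2% in WT and 60.0% in KO-labelled gate cells, with 0.323% and 0.112% in the erythroid set, which should lack it. Ms4a3 was found in 59.7% and 28.4%, with 2.80% and 0.785% in the erythroid set. For Slpi the shares were 45.1% and 62.4%, with 0.323% and 0.561%. Without thinning they were 46.0% and 78.3% for F13a1, 77.6% and 46.2% for Ms4a3 and 71.6% and 81.0% for Slpi.

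For other genes the shares in the erythroid set were higher, and whether those cells express the genes themselves was not tested. Nkg7 was found in 63.2% and 34.1% of gate cells and in 31.8% and 10.7% of the erythroid set, so its difference was not confined to the gate, and the other kept cells had a ratio of 0.498. Prdx4 was found in 22.7% and 51.2% of gate cells, with 25.1% and 35.8% in the erythroid set. Its WT gate share was thus not above that of the erythroid set. Pf4, the platelet chemokine with the ratio 0.142 (0.128 to 0.158), was found in 12.8% and 4.83% of gate cells. In the erythroid set the Pf4 shares were 13.6% and 8.30%, so those of the gate were no higher. A few cells held much more. Of its gate UMIs 55.6% (WT) and 58.1% (KO-labelled) came from 5 cells, so the summed levels rest mostly on such cells in both libraries. Without the cells rich in basophil or eosinophil genes Pf4 was lower in all 5 bands, with ratios from 0.0455 to 0.499.

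Pairs of genes showed how the programmes met in single cells. Among WT cells with an Elane UMI, 43.4% also had a F13a1 UMI at 3000 UMIs per cell, against 69.7% in the KO-labelled library. Among cells without an Elane UMI the shares were 11.2% and 46.6%. For Ms4a3 the order was opposite, with 70.2% and 45.1% among Elane-positive cells and 22.4% and 5.09% among the others. Cebpe and Irf8 rarely met, since 6 of 59 WT and 17 of 85 KO-labelled cells with a Cebpe UMI had an Irf8 UMI, against 44.2% and 54.3% of those without. These shares leave out cells rich in basophil or eosinophil genes.

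Genes for myeloid transcription factors leaned towards higher levels in the KO-labelled gate. Of 23 measured ones 17 were higher and 6 lower, where 36.3% of all 9137 genes were higher and 63.7% lower. Their median log2 ratio was 0.19, beside -0.077 over all genes, and 0.085 between male cells. At least 1.5-fold higher were Runx1, Cebpd (82.3 and 144 CPM, 1.75), Id1, an inhibitor of helix-loop-helix factors (1.81), and the related Id2 (2.28, at 3.095 and 7.06 CPM), and none was lower by that much. Gfi1 was at 23.9 and 34.6 CPM (1.45, 1.22 to 1.71). Irf8 was at 302 and 372 CPM (1.23) and Spi1, the PU.1 gene, at 260 and 314 CPM (1.20). Cebpa, which encodes C/EBPα, was at 77.3 and 60.9 CPM (0.788), and at 0.921 without the cells rich in basophil or eosinophil genes. Cebpe was at 76.2 and 68.6 CPM (0.900, 0.811 to 0.998). Without those cells its ratios in the 4 bands with at least 20 UMIs ran from 0.546 to 3.07, with 3 bands lower and 1 higher.

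The neutrophil and the monocyte factors had different profiles over the bands. Cebpe ran from 4.06 CPM in the lowest to 207 CPM in the highest band of WT cells and from 12.3 to 205 CPM in KO-labelled cells, and Gfi1 from 8.92 to 70.3 CPM and from 10.5 to 88.4 CPM. Irf8 was highest between 50 and 100, at 446 and 474 CPM, and stood at 144 and 126 CPM in the highest band. Among the other RUNX genes Runx2 had a ratio of 1.38 and Runx3 of 1.26, and Cbfb, the partner subunit, of 0.775.

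Receptor genes were split more evenly over all gate cells, but not without the cells rich in basophil or eosinophil genes. Of 20 measured myeloid receptors 12 were higher and 8 lower, against 36.3% and 63.7% of all 9137 genes. Without those cells 15 were higher and 5 lower. Their median log2 ratio was 0.16 over all gate cells, 0.17 without those cells (beside -0.074 for all genes there), and -0.067 between male cells. Fcgr2b, an inhibitory Fc receptor gene (1.79), and Ifngr1, a chain of the interferon gamma receptor (187 and 332 CPM, 1.78), were at least 1.5-fold higher. Cx3cr1, the fractalkine receptor of monocytes (0.372), and Cxcr4 (0.660) were lower. The granulocyte colony-stimulating factor receptor gene Csf3r was at 34.6 and 38.2 CPM (1.10, 0.953 to 1.28) and Csf2rb at 38.7 CPM in both (0.999, 0.867 to 1.15), both intervals including 1. Without the cells rich in basophil or eosinophil genes Csf2rb was higher in all 5 bands, with ratios from 1.002 to 1.37. In the other kept cells Csf3r and Csf2rb stood at ratios of 2.19 and 3.07, a difference between gate and other cells that was not tested. Csf1r was at 26.6 and 37.8 CPM (1.42, 1.21 to 1.67).

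Genes of later neutrophil stages were higher, but from few cells. S100a8, a chain of the calcium-binding protein calprotectin, was at 109 CPM in WT and 598 CPM in KO-labelled gate cells (5.48, 5.13 to 5.86), S100a9 at 17.6 and 152 CPM (8.61) and Chil3, a chitinase-like protein gene, at 36.7 and 346 CPM (9.42). In each library 50 cells held 92.6% or more of the S100a8 UMIs and 93.7% or more of the Chil3 UMIs. At 3000 UMIs S100a8 was found in 6.96% and 15.7% of gate cells, against 1.29% and 2.02% of the erythroid set. S100a8 did not keep its direction over the bands, with ratios of 54.6, 10.7, 0.549, 0.554 and 5.08, while Chil3 was higher in all 5. The profiles of these genes also differed. Chil3 was highest in the lowest band, at 107 CPM in WT and 1317 CPM in KO-labelled cells. S100a8 was highest in the highest band, at 481 and 2441 CPM.

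Over all 9137 genes 36.3% were higher, 2.96% past 1.5-fold, and 63.7% were lower, 5.15% past it. In the neutrophil granule and maturation list 9 of 11 measured members were higher (6 past 1.5-fold) and 2 lower (0 past it), with a median log2 ratio of 0.69. Outside the gate its median was 2.39. Camp, Ngp and Ltf, which the rule limits, were at 4.06 and 6.08, 1.28 and 1.07, and 0 and 0.179 CPM. The monocyte and dendritic list had 14 of 20 higher and 6 lower, 9 and 2 by at least 1.5-fold, with a median of 0.48 that was 0.00070 between male cells. Its members Cd74 (7.04 and 29.9 CPM) and H2-Ab1 (35.6 and 54.3 CPM) belong to antigen presentation, and 274 of the 334 Cd74 UMIs of the KO-labelled gate came from 3 cells.

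Further genes with extreme ratios were mostly weakly expressed in 1 of the libraries. Hmga2, an architectural chromatin protein gene, was at 2.35 and 28.4 CPM (12.1, 7.86 to 19.6), Myof, a membrane repair protein gene, at 1.81 and 22.9 CPM (12.6, 7.72 to 22.0), and Ccl24, a chemokine gene, at 0.854 and 20.5 CPM (24.0, 11.96 to 56.2). In the other kept cells their ratios were 5.64, 1.16 and 9.56. Fbp1 (4.24), Ifitm7 (3.84), Ptgs1, the cyclooxygenase 1 gene (20.3 and 63.0 CPM, 3.11), and Siglecg (2.87) completed the 12 highest. Between male cells Hmga2 was at 10.4, Myof at 11.1, Ccl24 at 15.8 and Ptgs1 at 3.20.

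On the lower side, besides the basophil genes and Pf4, were Ifitm1 (206 and 52.1 CPM, 0.253), Ffar2, a receptor for short-chain fatty acids (20.7 and 4.83 CPM, 0.233), Kctd14 (0.296), Ppic (0.296) and Selenom (0.298). In the thinned erythroid set Ifitm1 was found in 29.7% (WT) and 4.48% (KO-labelled) of cells, close to the 35.2% of WT gate cells, so it too was lower outside the gate. Ms4a2 (0.0378), Rnase12 (0.0747) and Csrp3 (0.0138) were lower with the basophil genes, and without the cells rich in basophil or eosinophil genes they were at 0.208, 0.267 and 0.0478. All 24 genes of this rule, the 12 highest and 12 lowest, kept their direction under 11 alternatives each.

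**Figure D4:**
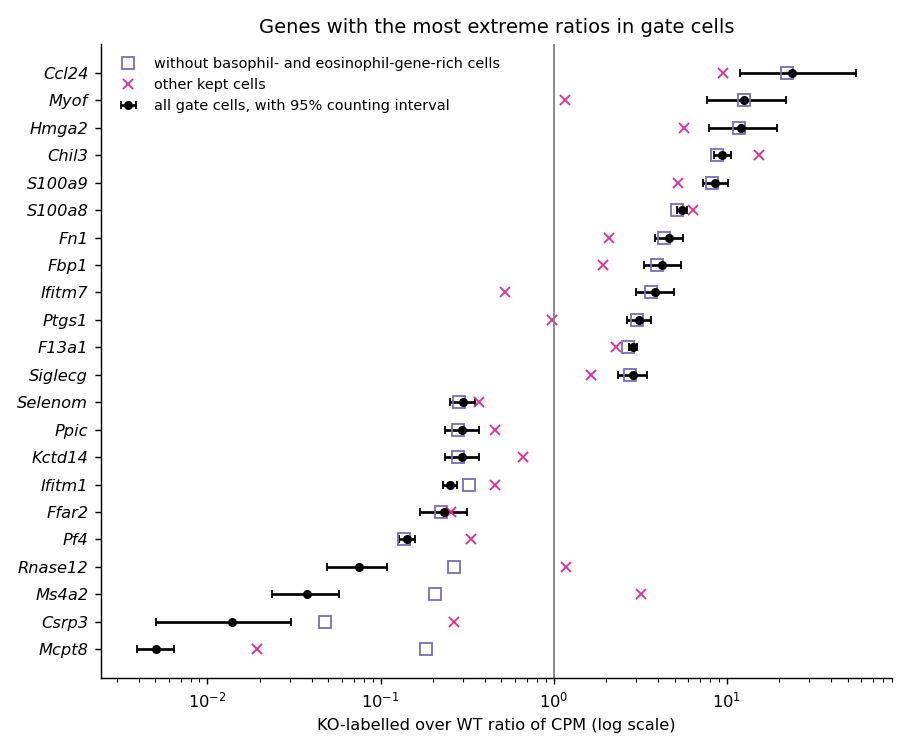
Ratio of KO-labelled to WT CPM (x axis, log scale) for the 12 highest and 10 of the 12 lowest genes in gate cells, with black points and bars for all gate cells and their 95% counting intervals, open squares without cells rich in basophil or eosinophil genes, and crosses for the other kept cells. Prss34 and Fcer1a, at 0 in the KO-labelled gate, are not drawn, and Mcpt8, Csrp3, Ms4a2 and Rnase12 move towards 1 without those cells while the 12 highest hardly move.

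The share of all 9137 genes that were lower in the KO-labelled gate was 63.7%, and 5.15% were lower by at least 1.5-fold. Among lists of general functions, S phase genes were lower in 31 of 33 members, none by 1.5-fold. Their median log2 ratio was -0.24, which was -0.26 in the other kept cells and -0.099 between male gate cells. Over all gate cells, those rich in basophil or eosinophil genes included, as in the other summed list levels by band, their sum was lower in the KO-labelled library in all 5 bands, for example 4056 and 3374 CPM in the lowest and 3340 and 2887 CPM in the highest band. G2 and M phase genes had a median of 0.028. Genes for protein folding and stress in the endoplasmic reticulum were lower in 27 of 31 members (median -0.25, -0.15 without the cells rich in basophil or eosinophil genes), with Fkbp11 at 0.324 and Hyou1 at 0.597. Their summed level was higher at each higher band in both libraries, from 4620 to 10780 CPM in WT and from 3988 to 7742 CPM in KO-labelled cells. Heat shock genes had a median of -0.33 over 12 members and ribosome biogenesis genes of -0.11 over 35.

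Megakaryocyte and stem cell genes were low in the gate. Over all 9137 genes 63.7% were lower in the KO-labelled gate, 5.15% by at least 1.5-fold. Of 16 megakaryocyte and platelet genes 13 were lower, 6 by at least 1.5-fold, with a median of -0.44. Their summed level was 859 and 490 CPM in gate cells, against 3728 and 2871 CPM in the other kept cells. Pf4 alone had 2554 (WT) and 434 (KO-labelled) gate UMIs, of which 1421 and 252 lay in 5 cells of each library. The difference between the 2 gate sums thus rests in large part on this gene and few cells. Of 16 stem cell genes 10 were lower, a share near that of all genes. By at least 1.5-fold 7 were lower, and the list median was -0.32, and 0.029 at a gate level of 50. Among these 7 were Hoxa9 (26.8 and 13.8 CPM, 0.517) and Gata2 (0.442, and 0.770 without the cells rich in basophil or eosinophil genes). Both lists were lower at each higher band in both libraries. Between male cells their medians were -1.92 (megakaryocyte) and -1.28 (stem cell). Erythroid genes had a median of -0.13 over 16 members. Lymphoid-primed genes had a median of 0.16, with 9 of 14 members higher, and summed to 1380 and 1576 CPM in gate cells against 1080 and 753 CPM in the other kept cells.

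Among the remaining lists the immediate early genes stood furthest from all genes of those with more than 4 members, at 0.38 (12 of 14 higher, 0.063 between male cells), with Fos at 42.4 and 95.7 CPM (2.26) and higher in all 5 bands. Quiescence genes were at 0.19, with 13 of 19 members higher. Without the cells rich in basophil or eosinophil genes they were at 0.37 and the immediate early genes at 0.44. For both lists the share over all 9137 genes was 36.3% higher. Chromatin regulators were at -0.075 over 25, interferon-stimulated genes at -0.011 over 22, lysosome genes at 0.023 over 29, and MHC genes at 0.10 over 14. Glycolysis (-0.085 over 19) and redox genes (-0.044 over 20) had medians near that of all genes, although Gsr, glutathione reductase, was at 213 and 384 CPM (1.80). The RUNX list was at 0.051 over 6, the macrophage and stroma list at 0.48 over 4, and of the B, T and NK cell list only Cd79b was measured (1.53).

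**Figure D5:**
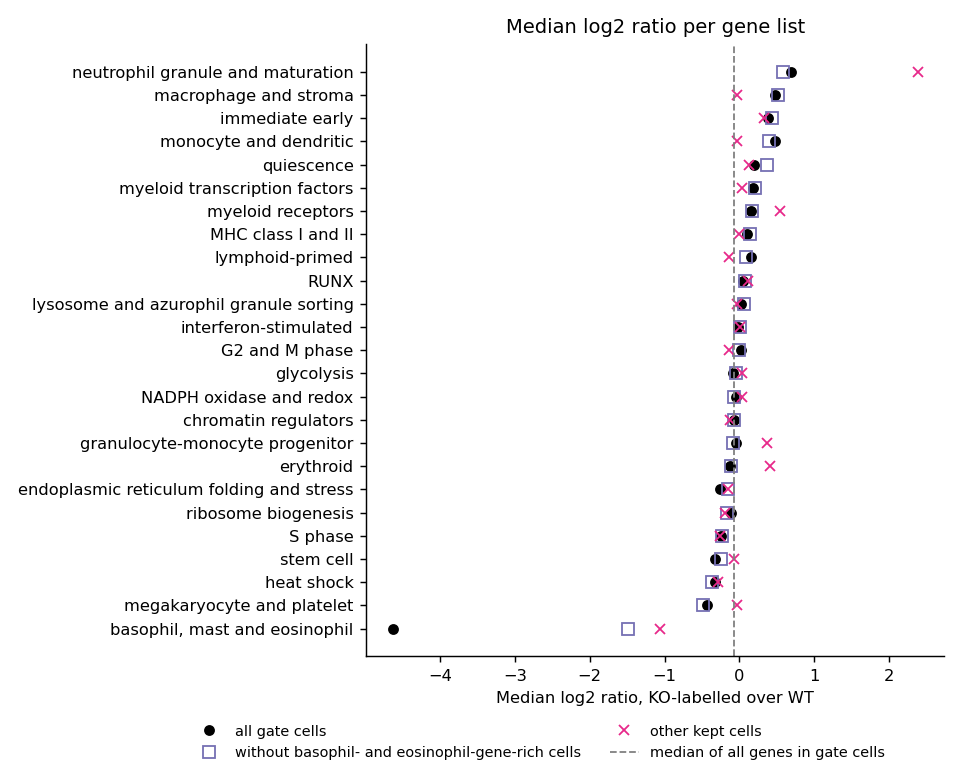
Median log2 ratio of KO-labelled to WT (x axis) over the measured members of each of 25 gene lists, with black points for all gate cells, open squares without cells rich in basophil or eosinophil genes, crosses for the other kept cells, and a dashed line at -0.077, the median of all genes in gate cells. The basophil, mast and eosinophil list lies furthest to the left at -4.64 and moves to -1.49 without those cells, and the neutrophil list lies furthest to the right in both gate cells and other kept cells.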

How the data were processed

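RNA of mouse bone marrow cells sorted as LSK CD150+ was measured by 10x 3′ v2 single-cell RNA-seq, per the labels' protocols, in 1 library per genotype. The authors deposited raw UMI counts for each gene in each barcode. The submitters' processing notes name Cell Ranger 2.1.1 and mm10, and the matrix headers software version 3.1.0. Groups follow the genotype labels. The members, the gene lists and the rule for named genes were chosen with earlier results of these data known.

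Counts were summed over gate cells per library and scaled to their total (CPM). Sums have exact Poisson, ratios exact conditional binomial and shares exact Clopper-Pearson intervals (95%), and a library at 0 was set to 3 counts. UMIs remove PCR copies, but the intervals leave out differences between animals and libraries. No test was made. Doublets were not removed. Named genes were the 15 highest in gate over other cells at 50 CPM, the 12 highest and 12 lowest ratios at 20 CPM with a UMI in 10% of gate cells of the higher library (without ribosomal protein, mitochondrial, sex-linked, haemoglobin, unnamed and gate genes), the gate and RUNX genes, up to 4 members of each list, and all progenitor, factor and receptor genes; Prdx4, and list members outside this rule, were added after their values were seen. Lists used genes at 5 CPM or more. The values of 1 progenitor list member are not reported here. Male cells had no Xist UMI and at least 1 UMI from the Y-linked genes Uty, Kdm5d, Ddx3y and Eif2s3y. The erythroid set was other kept cells with 10 or more UMIs per 10000 of Klf1, Car1 and Ermap (937 WT, 899 KO-labelled). Positions are from GENCODE M21 on GRCm38, matched by gene ID, and promoter sequences from RefSeq. The steps were checked on simulated data. Python 3.11.15, numpy 2.4.6, scipy 1.17.1, pandas 2.3.3 and edgeR 4.0.16 (TMM factors, an alternative) were used.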

Additional observations from a re-analysis of the deposited data

Results flagged for a closer look

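Cd74, the invariant chain of MHC class II, had a ratio of KO-labelled to WT of 4.24 in gate cells and 0.598 in the other kept cells, so it pointed in opposite directions. In the KO-labelled gate 274 of its 334 UMIs came from 3 cells, and between male cells the ratio was 0.776. Ms4a2, the beta chain of the IgE receptor, had a ratio of 0.0378 in gate cells and 3.18 in the other kept cells, and 0.208 in gate cells without those rich in basophil or eosinophil genes. With 1 library per genotype neither difference between gate and other cells was tested.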

How the results depend on the processing

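The share of kept cells in the gate moved with the rule. It was 6.59% (WT) and 7.13% (KO-labelled) at a gate level of 5 per 10000, 4.81% and 5.24% at 20, 3.55% and 3.86% at 50, 6.52% and 6.68% with a stricter cell filter of 1000 genes and 5% mitochondrial UMIs, and 6.46% and 6.86% without erythroid-gene-rich cells. Without the 5% deepest cells the KO-labelled share was 5.13% and the order turned, and without cells rich in basophil or eosinophil genes the WT share was 5.18%. The counts of genes 2-fold higher and lower, 31 and 38, were 48 and 125 between male cells, 16 and 18 at 50 CPM and 1221 and 1642 with no floor, where most genes have few UMIs. The lower count was 61 with every cell weighted equally and 21 without cells rich in basophil or eosinophil genes. The cause of these shifts was not tested, other than that floors and smaller sets change which genes and cells enter.

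Of 25 list medians 11 kept 1 direction under all alternatives run. Of the other 14, 6 turned as follows, myeloid receptors (-0.067), lymphoid-primed (-0.058) and MHC (-0.24) between male cells, stem cell at a gate level of 50 (0.029), erythroid with no floor (0.0029), and macrophage and stroma with every cell weighted equally (-0.013), at 20 CPM (-0.34) and with no floor (-0.0093). The other 8 crossed 0 over ranges of -0.17 to 0.37 (progenitor), -0.36 to 0.12 (G2 and M phase), -0.39 to 0.079 (interferon-stimulated), -0.14 to 0.12 (glycolysis), -0.025 to 0.11 (lysosome), -0.069 to 0.051 (redox), -0.26 to 0.015 (chromatin) and -0.038 to 0.33 (RUNX). Of 164 named genes rechecked, 70 had ratios past 1.5-fold and 2 of these turned, both between male cells, Cd74 (0.776) and Klf2 (0.863). Cpa3, Prg3 and Cd200r3, which turned without cells rich in basophil or eosinophil genes, were not among the 164. TMM scaling added 0.090 to every log2 ratio and put the median of all genes at 0.024. No paired analysis was possible because each genotype had 1 library, and none could be left out. The 64 male KO-labelled gate cells limit the comparison within sex.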
